A study of Mus musculus with 28 samples.

Results

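The nuclear genes for the subunits of the mitochondrial respiratory chain were followed in the liver of mice given vehicle, OCA, or INT-787. They were chosen by name alone, as every gene whose mouse symbol begins with Nduf followed by a, b, c, s, or v, with Uqcr, with Atp5, or with Cox4 to Cox8 followed by a, b, or c, together with the 4 genes Sdha to Sdhd, and with a mean of at least 1 CPM (read counts scaled to the library total) over the 28 mice. Of 21935 genes in the table, 91 matched and 86 reached that level, which is 0.392% of the table. They comprised 38 genes of complex I, 4 of complex II, 8 of complex III, 11 of complex IV, 17 of complex V (ATP synthase), and 8 complex I assembly factors (*Ndufaf1* to *Ndufaf8*) that share the name stem but are not part of the finished complex. Complexes were assigned by name stem alone. The complex I counts therefore include *Ndufa4* and *Ndufa4l2*, whose place in complex I was not checked. The subunits *Cox4i1*, *Cyc1*, and *Usmg5* have names outside the rule and are counted apart, and the subunits encoded by mitochondrial DNA were not analysed here.

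All mice were male and carried the B6.V-Lepob/JRj (Lep ob/ob) leptin deficiency. They were fed the AMLN diet (high in fat, fructose, and cholesterol), which gives a model of nonalcoholic steatohepatitis (NASH), for 14 weeks before dosing and throughout it. Dosing was oral, once daily, for 2 weeks. The groups were vehicle (carboxymethylcellulose, 10 mice), OCA at 30 mg/kg (9 mice), and INT-787 at the same dose of 30 mg/kg (9 mice), and no lean or untreated mice were among the samples. OCA (obeticholic acid) is a semisynthetic bile acid that activates the farnesoid X receptor (FXR), and INT-787 is a derivative of OCA with an added hydroxyl group. Each mouse gave 1 liver RNA library, so n counts mice.

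The respiratory chain carries electrons from NADH (complex I) and succinate (complex II) through coenzyme Q to complex III, cytochrome c, and complex IV, which reduces oxygen. Complexes I, III, and IV pump protons across the inner mitochondrial membrane, and complex V uses the return flow of protons to make ATP. Most subunits are encoded in the nucleus, and hepatocytes, which are rich in mitochondria, depend on the chain to burn fatty acids.

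Total counts ranged from 9313260 to 22421506 in 27 mice and were 1009593 in vehicle replicate 6. In vehicle replicate 5, 131 nearly silent genes lying antisense to an expressed neighbor summed to 387 CPM, compared with 4.95 to 11.5 CPM in the other 27 mice, and 21 of the 86 members have such an overlap. Hepatocyte markers were high in every group, with albumin (*Alb*) at 74111 ± 17033 CPM (SD, n = 10) in vehicle, 114239 ± 24769 CPM (SD, n = 9) with OCA, and 100982 ± 19091 CPM (SD, n = 9) with INT-787. Of 6 muscle markers, *Tnnt3* had 0 counts and the highest, *Mylpf*, 257 counts over all mice. Of 5 adipocyte markers, *Adipoq*, *Ucp1*, and *Lep* had 0 counts and *Plin1* 6, while *Cidea* had 11259 counts and was found in all 28 mice. Values are given below with all mice, and the counts of called members without these 2 mice follow in each comparison.

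Of the 86 members, 2 passed the test in any comparison, while 19.6% of all tested genes were called for INT-787 compared with vehicle, 6.6% for OCA compared with vehicle, and 5.38% for INT-787 compared with OCA. Both members rose with INT-787. They are *Ndufv1*, which encodes the complex I subunit that binds NADH and flavin mononucleotide, and *Sdhb*, which encodes the iron-sulfur subunit of complex II. *Ndufv1* (ENSMUSG00000037916) lies at chr19:4007384-4012806 on the minus strand of GRCm38, and *Sdhb* (ENSMUSG00000009863) at chr4:140961203-140979193 on the plus strand. The bases just before each gene start, as far as no annotated exon covers them, are shown because promoters of respiratory chain genes are known for binding sites of the activator NRF1. Capitals mark GCGCANGCG, NRF1 site letters with a free base N, on either strand. The *Ndufv1* run is chr19:4012807-4013005, the *Sdhb* run chr4:140961021-140961202, and the shorter run before *Sdha*, the flavoprotein subunit of complex II, chr13:74350281-74350308 (RefSeq promoter windows, GRCm38.p6), each 5′ to 3′ on the strand of its gene.
Ndufv1: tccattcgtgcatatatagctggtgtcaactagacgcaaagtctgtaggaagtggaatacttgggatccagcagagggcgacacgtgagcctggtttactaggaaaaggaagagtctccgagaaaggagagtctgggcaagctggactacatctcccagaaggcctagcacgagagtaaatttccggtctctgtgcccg
Sdhb: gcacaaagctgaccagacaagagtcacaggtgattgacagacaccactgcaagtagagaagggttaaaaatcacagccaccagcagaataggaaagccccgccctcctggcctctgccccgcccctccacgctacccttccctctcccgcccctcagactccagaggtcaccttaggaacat
Sdha: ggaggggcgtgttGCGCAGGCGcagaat
The letters were in capitals for *Sdha* but not for *Ndufv1* or *Sdhb*. Promoter windows of 250 bases before the start were found for 71 of the 86 members (76 windows, since some genes have several starts). GCGCANGCG was in 21.1% of these and in 5.16% of all 32851 promoter windows, and GCGCATGCG, contained in the first count, was in 9.21% and 1.45%. The ETS letters CCGGAAGT were in 3.95% of member windows and 2.88% of all windows, and the estrogen-related receptor letters TCAAGGTCA in 1.32% and 0.387%. Both strands were searched, and a match is a description of letters, not of binding.

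Levels were compared between genes as CPM per kilobase of the principal transcript, averaged over the 28 mice. The medians were 89.1 for complex I, 133 for complex II, 198 for complex III, 205 for complex IV, 189 for complex V, and 8.52 for the assembly factors. *Atp5b*, the catalytic beta subunit of ATP synthase, was the highest member at 665 CPM per kilobase, followed by *Atp5g3*, which encodes the proton-carrying c subunit, at 579. *Ndufa4l2* at 2.19, *Atp5l* at 2.65, *Atp5s* at 3.498, and *Cox7a1* at 3.87 were the 4 lowest members on this scale. For *Atp5l*, 76.0% of the 75-base stretches of its transcript also occur in another gene, so its count is uncertain. In all, 16 members shared more than 20% of their stretches with another gene, *Ndufv1* and all complex II genes none.

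Of the paired isoforms of complex IV, the general form was the abundant one in these livers. Per kilobase, *Cox6a1* averaged 509 CPM and its heart and muscle counterpart *Cox6a2* 0.263 CPM. *Cox8a* averaged 332 CPM per kilobase and the muscle form *Cox8b* 0.0924, with reads in 8 of 28 mice. *Cox7a2* averaged 166 CPM per kilobase, compared with 3.87 for the heart and muscle form *Cox7a1*. The isoforms *Cox6b2* (0.299 CPM, 110 counts in all), *Cox7b2*, and *Cox8c* (both 0 counts in 28 mice) were also under 1 CPM and entered no test. All 86 members passed the filter on low counts.

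INT-787 compared with vehicle asks whether the hydroxylated bile acid moved the transcripts of the chain. It raised 2 of 86 members (2.33%) and lowered 0 at an adjusted p of at most 0.05, while 19.6% of all 12580 tested genes were called, 10.2% raised and 9.48% lowered (edgeR quasi-likelihood test, adjusted over all tested genes). The median log2 fold change of the members was 0.09, compared with -0.0010 for all genes, with 62 members above 0 and 24 below, while 49.8% of all genes were above 0. An unadjusted p under 0.05 was found for 10 members, compared with 32.3% of all genes. By complex the medians were 0.04 for complex I, 0.22 for complex II, 0.09 for complex III, 0.06 for complex IV, 0.13 for complex V, and 0.13 for the assembly factors. With upper-quartile scaling the medians of complexes I and IV turned to -0.02 and -0.0049.

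In complex I, *Ndufv1* ranged in vehicle from 104 to 177 CPM with a median of 138. With INT-787 it ranged from 145 to 193 CPM with a median of 170. All 9 INT-787 mice were above the vehicle median and 4 were above the highest vehicle mouse, so the groups overlapped. The mean rose from 135 ± 19.9 CPM (SD, n = 10) to 173 ± 16 CPM (SD, n = 9), a log2 fold change of 0.36 (SE 0.10, edgeR adjusted p = 0.0073). Genes counted with complex I by name and without a call ran from *Ndufa4l2*, an isoform known from hypoxic cells, at -0.33 to *Ndufb6* at 0.35. Of the 7 subunits of the NADH and iron-sulfur core, a group formed after the values were seen, 6 were above 0, with a median log2 fold change of 0.10 compared with 0.04 for the other 31.

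All 4 genes of complex II, the only complex that also works in the citric acid cycle, were higher in mean with INT-787 than with vehicle. *Sdhb* ranged from 111 to 229 CPM in vehicle, with a median of 152, and from 176 to 260 CPM with INT-787, with a median of 217. All 9 INT-787 mice exceeded the vehicle median and 3 exceeded every vehicle mouse. Its log2 fold change was 0.38 (SE 0.12, edgeR adjusted p = 0.019). *Sdha* ranged from 421 to 647 CPM in vehicle and from 603 to 697 CPM with INT-787. Here 5 of 9 INT-787 mice were above the highest vehicle mouse, yet the log2 fold change of 0.27 (SE 0.10) did not pass over all genes (edgeR adjusted p = 0.061). DESeq2 (adjusted p = 0.049), limma-voom (0.045), the fit of the 2 groups alone (0.035), and the fit with the sample number (0.033) called *Sdha*, and the remaining 10 of the 14 other settings did not, with 0.15 without vehicle replicates 5 and 6. *Sdhc* and *Sdhd*, the membrane anchors, had log2 fold changes of 0.16 (SE 0.11) and 0.16 (SE 0.07), with edgeR adjusted p values of 0.31 and 0.15. *Sdhc* passed with the replicate block and with the length offset and replicate block, at log2 fold changes of at most 0.26, and not in the remaining 12 of the 14 other settings. The median of complex II was 0.16 to 0.26 under the 14 other settings and 0.19 to 0.25 when each mouse was left out in turn.

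No gene of complexes III, IV, or V or of the assembly factors passed the test with INT-787 compared with vehicle; at an unadjusted p under 0.05 there were 0, 1, 3, and 0. DESeq2 called *Atp5a1* and *Atp5b* of complex V, and limma-voom called none of these genes. In complex III the member with the lowest p was *Uqcrfs1*, the Rieske iron-sulfur subunit, at 180 ± 26.7 CPM with INT-787 and 160 ± 23.5 CPM with vehicle (log2 fold change 0.17, edgeR adjusted p = 0.23). In complex IV it was *Cox7a1*, at 1.28 ± 0.466 CPM compared with 2.00 ± 0.773 CPM (log2 fold change -0.55, edgeR adjusted p = 0.15), a gene with few counts. In complex V it was *Atp5b*, which ranged from 1063 to 1469 CPM in vehicle and from 1269 to 1571 CPM with INT-787. All 9 INT-787 mice were above the vehicle median for *Atp5b*, with a log2 fold change of 0.21 (SE 0.08, edgeR adjusted p = 0.068). *Atp5a1*, the alpha subunit of the F1 head, had a log2 fold change of 0.21 (SE 0.08, edgeR adjusted p = 0.075). *Ndufaf1*, the assembly factor with the lowest p, stood at 0.19 (SE 0.11, edgeR adjusted p = 0.25).

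Left-out mice moved the number of members called with INT-787 compared with vehicle between 2 and 5, and *Ndufv1* and *Sdhb* passed in each of the 28 fits. The number was 4 without vehicle replicate 4 and 5 without OCA replicate 8, a mouse outside this comparison that shares the filter, scaling, and model. Fits without these mice called 2449 and 2733 of all genes, compared with 2469 in the reported fit. Without both vehicle replicates 5 and 6 the number of members called was 2, with 2182 of all genes. Without vehicle replicate 1 the median of complex I was -0.01. Among the 86 members, 73 had a 95% confidence interval that lay within 0.5 log2 units of 0.

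**Figure D1:**
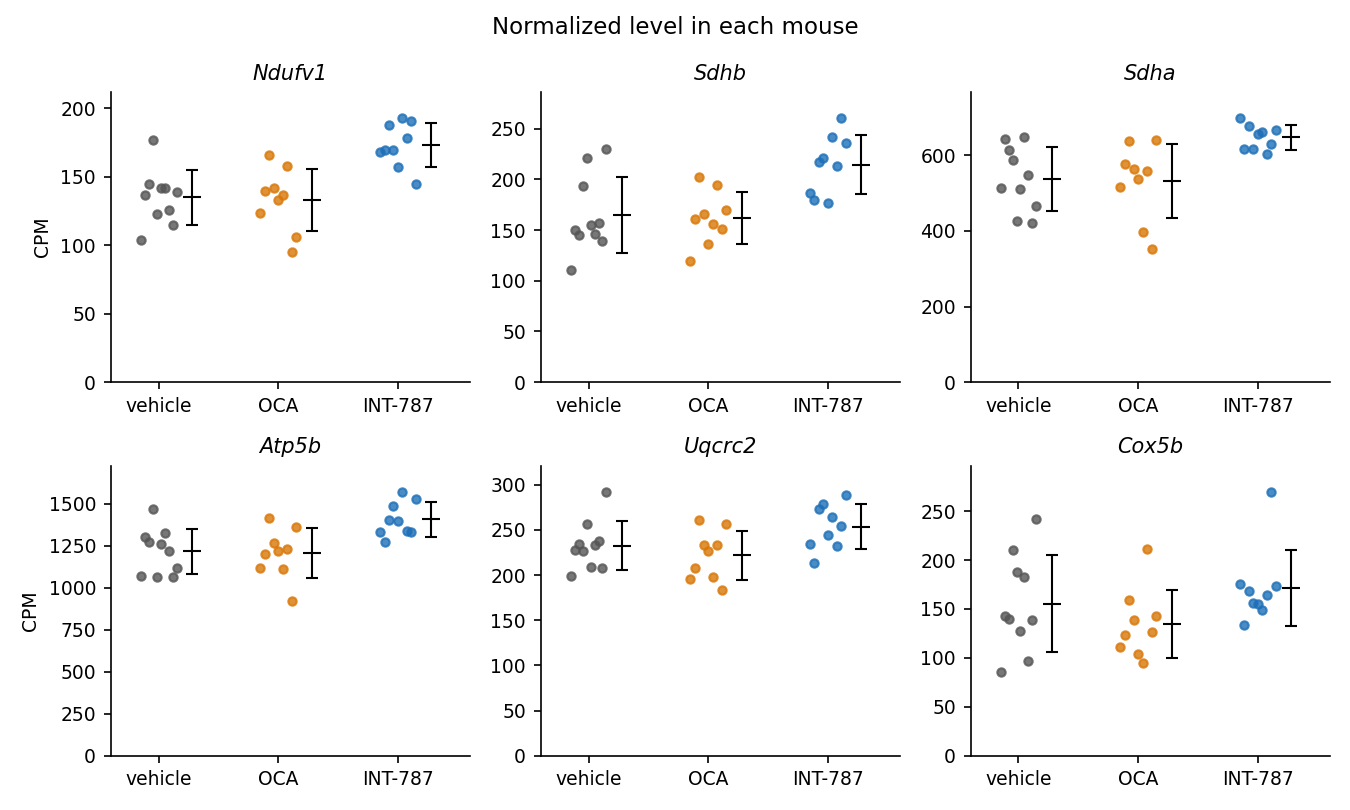
CPM of 6 members in each mouse (points), with the mean and SD of each group beside them (vehicle, n = 10; OCA, n = 9; INT-787, n = 9); the vertical axes start at 0. For *Ndufv1* 7 of 9 and for *Sdhb* 6 of 9 INT-787 mice lie above the highest OCA mouse, and for all 6 genes the groups overlap.

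OCA compared with vehicle gave a call for 0 of 86 members, while 6.6% of all tested genes were called, 4.15% higher and 2.45% lower (edgeR quasi-likelihood test). At an unadjusted p under 0.05 there were 2 members, compared with 18.5% of all genes, and DESeq2 and limma-voom also called 0, as did the fit without vehicle replicates 5 and 6. The median log2 fold change of the members was -0.08, compared with 0.02 for all genes. Of the members 72 were below 0 and 14 above, while 53.8% of all genes were above 0. The median was -0.11 for complex I, -0.03 for complex II, -0.10 for complex III, -0.12 for complex IV, -0.08 for complex V, and 0.06 for the assembly factors. The signs were the same with DESeq2 size factors and upper-quartile scaling. For complex V the mean level per mouse was 0.01 log2 units higher with OCA, the opposite sign to the median over its genes. The interval lay within 0.5 log2 units of 0 for 70 of 86 members.

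The member of each complex with the lowest p under OCA is given next. *Ndufa10*, an accessory subunit of complex I, ranged from 192 to 390 CPM in vehicle and from 169 to 289 CPM with OCA (log2 fold change -0.23, SE 0.10, edgeR adjusted p = 0.22). *Uqcr11*, a small subunit of complex III, averaged 101 ± 32.9 CPM in vehicle and 78.6 ± 24.9 CPM with OCA (log2 fold change -0.35, edgeR adjusted p = 0.28). *Cox7a1* stood at -0.60 (SE 0.27, edgeR adjusted p = 0.21), and *Cox6a1*, *Cox7a2*, and *Cox8a* at -0.25, -0.08, and -0.12. None of these differences passed the test, and the groups overlapped for each gene. *Atp5g3* had a log2 fold change of -0.19 (edgeR adjusted p = 0.38) and *Ndufaf4* of 0.17 (edgeR adjusted p = 0.51). The complex II genes lay near 0, from -0.06 for *Sdhd* (edgeR adjusted p = 0.76) to -0.02 for *Sdha*, and *Sdhb* differed by -0.03 with a 95% confidence interval of -0.26 to 0.21.

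INT-787 was compared directly with OCA at the matched dose and time, since the 2 bile acids differ by the added hydroxyl group. INT-787 mice had more *Ndufv1* and *Sdhb* transcript than OCA mice, and the other 84 members did not pass the test, while 5.38% of all genes were called, 2.19% higher and 3.19% lower with INT-787 (edgeR quasi-likelihood test; 2.33% of members). The members' median log2 fold change was 0.15, compared with -0.0065 for all genes, and 81 of 86 were above 0, compared with 48.6% of all genes. Members moved together between mice, as given below, so these signs are not independent. The medians were 0.14 for complex I, 0.25 for complex II, 0.19 for complex III, 0.14 for complex IV, 0.17 for complex V, and 0.05 for the assembly factors, all above 0 with DESeq2 size factors and upper-quartile scaling too. The 3 comparisons share mice, so each stands for its own contrast and none is support for another.

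*Ndufv1* ranged from 94.7 to 166 CPM with OCA (median 136), and 7 of 9 INT-787 mice were above that range. Its log2 fold change was 0.38 (SE 0.10, edgeR adjusted p = 0.019), with a 95% confidence interval of 0.18 to 0.58. *Sdhb* ranged from 120 to 203 CPM with OCA (median 161), and 6 of 9 INT-787 mice were above that range. Its log2 fold change was 0.41 (SE 0.12, edgeR adjusted p = 0.037). The call for *Sdhb* was lost in 11 of 28 fits that left out 1 mouse, namely OCA replicates 1, 2, 5, 6, and 8 and INT-787 replicates 3, 4, 6, 7, 8, and 9, with adjusted p values of 0.051 to 0.081 and log2 fold changes never under 0.36. With upper-quartile scaling it was lost too (adjusted p = 0.052). Without OCA replicate 3 the number of members called was 4 and without OCA replicate 7 it was 5, and *Ndufv1* passed in every fit. Fits without these mice called 888 and 730 of all genes, compared with 677 in the reported fit. Without vehicle replicates 5 and 6 the number of members called was 2, with 708 of all genes.

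Of the 86 members, 17 had an unadjusted p under 0.05 between the 2 drugs, the 2 called genes among them, compared with 18.9% of all genes. *Sdha* (0.29, SE 0.10), *Sdhd* (0.21, SE 0.08), and *Atp5a1* (0.25, SE 0.09) had edgeR adjusted p values of 0.11, 0.098, and 0.086. DESeq2 called *Sdhd*, *Atp5a1*, and *Atp5b* beside the 2 named genes, and limma-voom called none of them. *Sdhc* stood at 0.19, with an interval of -0.04 to 0.41. In complex III *Uqcrc2*, a core subunit, ranged from 184 to 261 CPM with OCA and from 213 to 289 CPM with INT-787 (log2 fold change 0.19, edgeR adjusted p = 0.19); 23.8% of its stretches occur in another gene. In complex IV *Cox5b* had a log2 fold change of 0.35 (SE 0.17, edgeR adjusted p = 0.25), and *Ndufaf1* in the assembly factors one of 0.11 (edgeR adjusted p = 0.67). For 63 of 86 members the interval of the difference between the drugs lay within 0.5 log2 units of 0, so for the other 23 a difference of that size was not excluded.

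**Figure D2:**
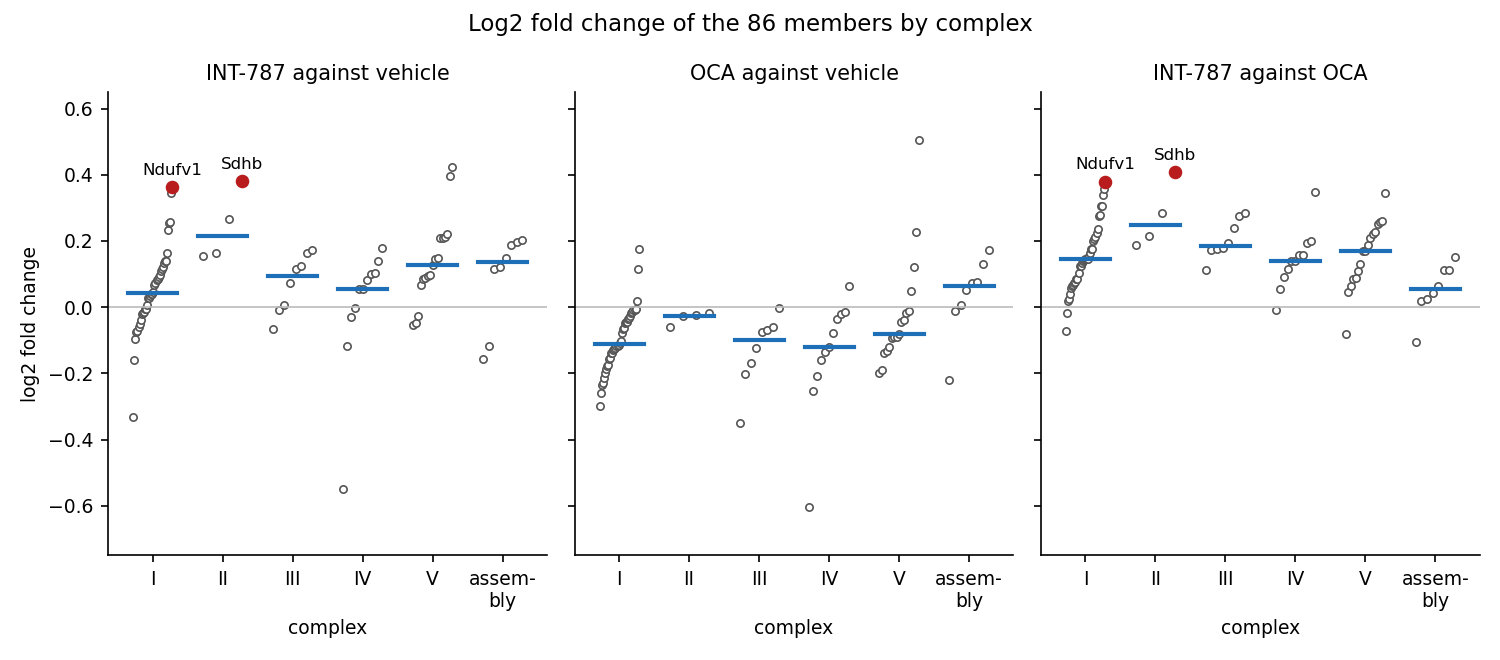
Log2 fold change of each of the 86 members (points) by complex in the 3 comparisons, with filled red points for members at an adjusted p of at most 0.05 (edgeR) and blue lines for the median of each complex. *Ndufv1* and *Sdhb* are the called members, and the 6 medians are all above 0 for INT-787 against OCA, although those of complexes I and IV against vehicle turn below 0 with upper-quartile scaling.

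Transcripts of the chain are short, which matters here because the relation of log2 CPM to transcript length differed between mice. What made it differ was not tested. The median exon length of the members was 1737 bases, compared with 4492 bases for all tested genes, and 79 of 86 members were shorter than that median. For each mouse, the slope of log2 CPM (as a deviation from the mean of all mice) on log2 exon length was taken over the tested genes that are not members. This slope ran from -0.27 per doubling of length in vehicle replicate 10 to 0.18 in vehicle replicate 1. It was -0.0079 ± 0.128 (SD, n = 10) in vehicle, 0.0032 ± 0.0599 (SD, n = 9) with OCA, and 0.0056 ± 0.0577 (SD, n = 9) with INT-787. The group means differed by less than the spread (exact two-sided permutation tests, adjusted over 3 comparisons, p = 0.93 in each), and the vehicle mice were the most widely spread.

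The level of the members, as their mean log2 CPM in a mouse, moved against this slope. Over the 28 mice Pearson's r was -0.87 and Spearman's rho -0.80, and r was -0.81 without vehicle replicates 1 and 10, the 2 mice farthest from the median. Within the groups r was -0.94 in vehicle mice, -0.80 in OCA mice, and -0.93 in INT-787 mice. By complex, r over all mice was -0.89 for complex I, -0.88 for complex IV, and -0.47 for complex II, whose genes have the longest median exon length. Within the groups complex II had an r of -0.78 in vehicle mice, -0.39 in OCA mice, and -0.79 in INT-787 mice. Slope and level come from the same libraries, so these values are a description of them. Members also moved together within groups, with a median correlation of 0.58 over 3655 pairs of members compared with -0.02 between members and other genes.

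**Figure D3:**
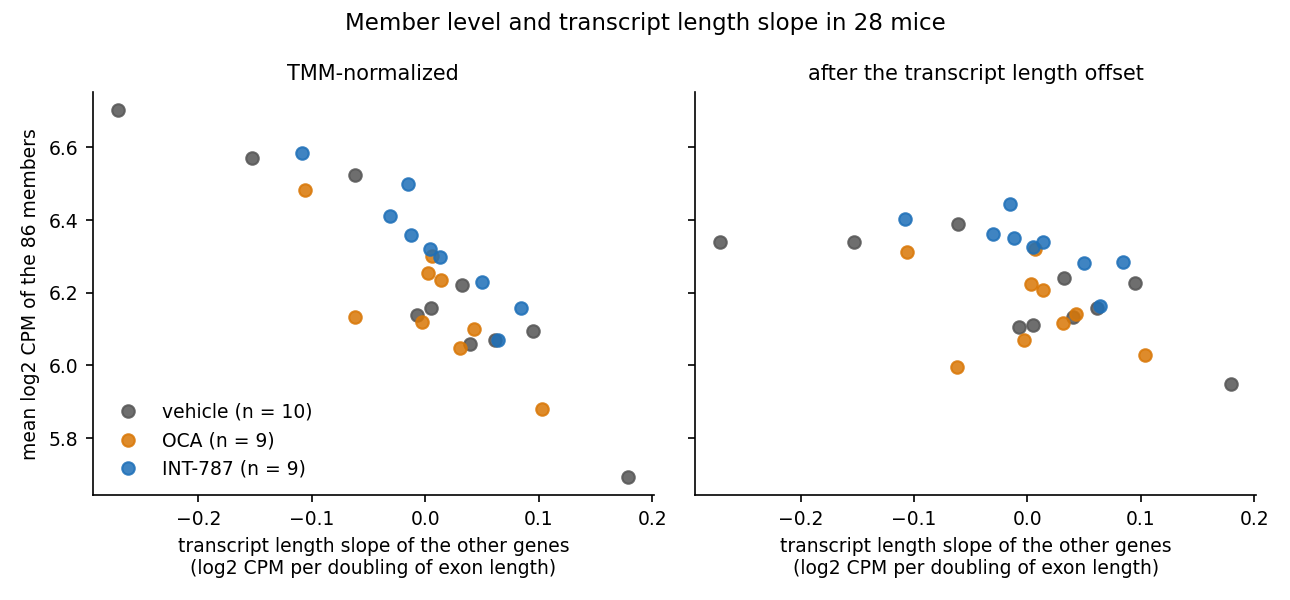
Mean log2 CPM of the 86 members in each of 28 mice against the transcript length slope of the other genes in that mouse, before and after an offset for length was added. Before the offset the points fall from vehicle replicate 10 at the upper left to vehicle replicate 1 at the lower right (r = -0.87), and after it r is -0.51.

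A second fit therefore removed the smooth trend of each mouse on exon length. The median spread of a member between mice of a group went from 0.31 to 0.23 on the log2 scale, while that of all tested genes went from 0.29 to 0.28. The correlation between pairs of members was then 0.26, and r between level and slope was -0.51 overall and -0.75 within vehicle, so the offset did not take out the whole relation. The mean level per mouse of complex II was 7.77 ± 0.11 log2 CPM in vehicle, 7.74 ± 0.15 with OCA, and 8.04 ± 0.09 with INT-787 (SD) after the offset, and 8 of 9 INT-787 mice were above the highest vehicle mouse, compared with 5 of 9 before it. For all members the mean level was 6.20 ± 0.13 in vehicle, 6.16 ± 0.12 with OCA, and 6.33 ± 0.08 with INT-787, and all 9 INT-787 mice were above the OCA median.

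With the offset, 5 members passed for INT-787 compared with vehicle and 0 were lower, against 11.3% of all genes higher and 10.6% lower. Beside *Ndufv1* and *Sdhb* these were *Ndufa8* (log2 fold change 0.33, adjusted p = 0.0026), *Ndufb6* (0.40, adjusted p = 0.014), and *Cox7b* (0.25, adjusted p = 0.036), named after their values were seen. For OCA compared with vehicle *Ndufa8* passed (0.25, adjusted p = 0.044), against 4.34% of all genes higher and 3.08% lower, and the other 85 members did not. For INT-787 compared with OCA 6 members were higher, against 3.0% of all genes higher and 3.51% lower. They were *Ndufv1* (0.39, adjusted p = 0.0098), *Sdhb* (0.42, adjusted p = 0.0040), *Ndufc2* (0.28, adjusted p = 0.025), *Ndufb10* (0.36, adjusted p = 0.030), *Atp5c1* (0.24, adjusted p = 0.036), and *Ndufb9* (0.26, adjusted p = 0.041). All but *Sdhb* and the ATP synthase gene *Atp5c1* belong to complex I. The members' median log2 fold change with the offset was 0.12 for INT-787 compared with vehicle, -0.05 for OCA compared with vehicle, and 0.17 for INT-787 compared with OCA.

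Split by exon length, the median log2 fold change of INT-787 compared with vehicle was 0.06 in 38 members of up to 1500 bases, 0.10 in 27 of 1500 to 3000 bases, and 0.13 in 21 longer members, compared with -0.06, -0.02, and 0.0072 for all genes of those lengths. For OCA compared with vehicle the members' medians were -0.12, -0.08, and -0.04. For INT-787 compared with OCA they were 0.15, 0.14, and 0.16, with no order by length. After the offset the medians of INT-787 compared with vehicle were 0.12, 0.13, and 0.12. Across the 86 members the correlation of log2 fold change with log2 exon length was 0.38, 0.41, and -0.0092 in these comparisons, and 0.18, 0.22, and -0.05 after the offset; genes are not independent replicates.

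**Figure D4:**
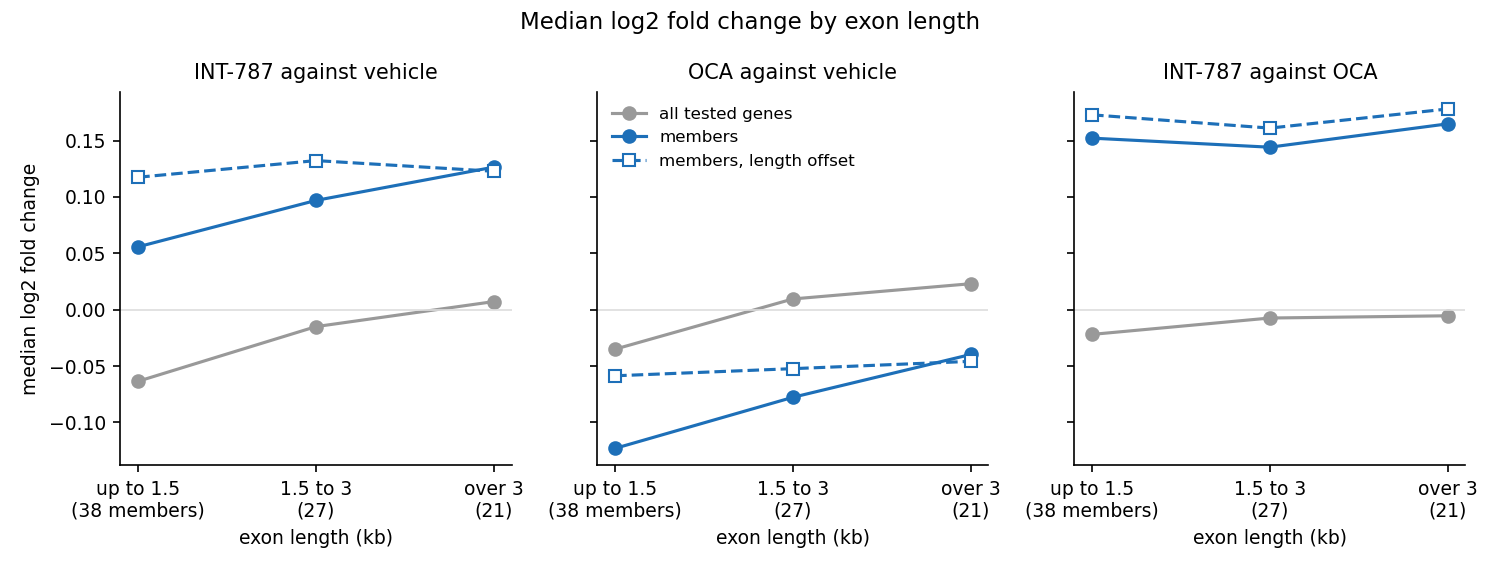
Median log2 fold change by exon length for all tested genes (grey), the members (blue, filled), and the members with the length offset (blue, open) in the 3 comparisons. Members up to 1.5 kb lie lower than longer ones against vehicle, from 0.06 to 0.13 for INT-787 and from -0.12 to -0.04 for OCA, and not for INT-787 against OCA.

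**Figure D5:**
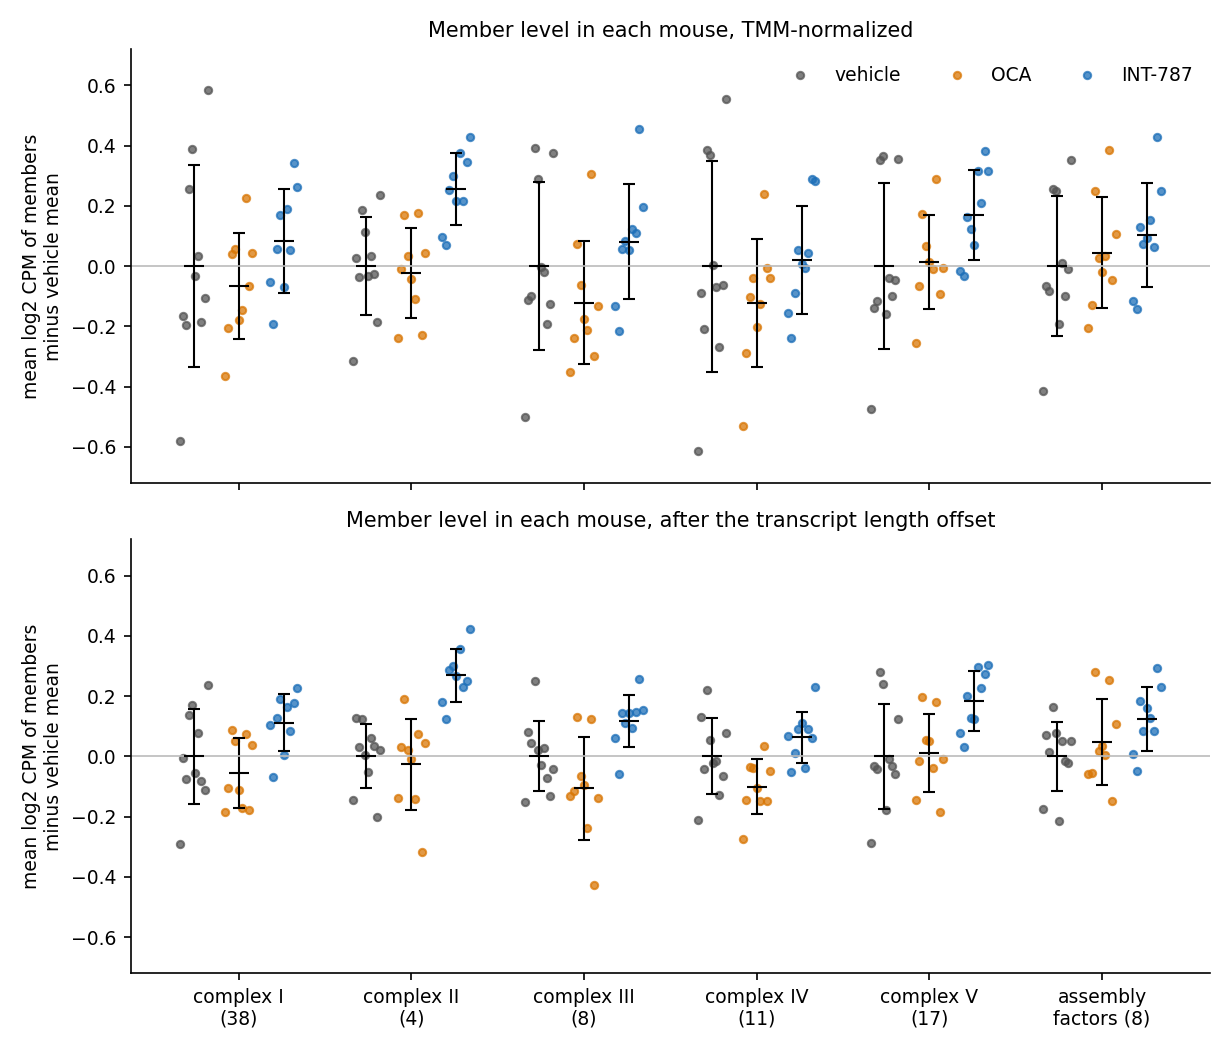
Mean log2 CPM of the members of each complex in each mouse (points), as the difference from the vehicle mean, with the mean and SD of each group (bars), before (top) and after (bottom) the length offset. The vehicle mice are the most widely spread in complexes I and IV before the offset, and complex II is the set in which 8 of 9 INT-787 mice lie above every vehicle mouse after it.

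Other genes of mitochondrial energy metabolism were counted from lists. Of 5 tested genes of the chain outside the naming rule (*Cox4i1*, *Cyc1*, *Usmg5*, cytochrome c gene *Cycs*, and *Atpif1*, the inhibitor of ATP synthase), none passed in any comparison by edgeR, DESeq2, or limma-voom, with 0, 1, and 2 at an unadjusted p under 0.05 in INT-787 and OCA compared with vehicle and INT-787 compared with OCA. *Cox4i1*, the regulatory complex IV subunit, averaged 624.9 CPM in vehicle, 567 with OCA, and 560 with INT-787. Of 14 complex I assembly factors, 6 of them beyond the members, *Nubpl* rose with INT-787 compared with vehicle (log2 fold change 0.42, adjusted p = 0.034). Of 34 tested assembly factors for complexes II to V only *Sco2*, which delivers copper to complex IV, rose, from 13.8 ± 7.36 to 24.1 ± 2.97 CPM (log2 fold change 0.77, adjusted p = 0.0025). The calls for *Nubpl* and *Sco2* stand beside 10.2% of all tested genes that rose. Of 14 regulators of mitochondrial biogenesis, 2 rose with INT-787 compared with vehicle, while 10.2% of all tested genes rose, and with OCA 0 passed (edgeR, DESeq2, and limma-voom) and 3 had an unadjusted p under 0.05. The genes that rose were *Ppargc1a*, the coactivator PGC-1 alpha, from 8.76 ± 3.16 to 13.4 ± 2.43 CPM (log2 fold change 0.58, adjusted p = 0.0091), and *Tfb1m*, a mitochondrial rRNA methyltransferase, with a log2 fold change of 0.42 (adjusted p = 0.048). With OCA compared with vehicle these 2 genes stood at 0.42 (edgeR adjusted p = 0.13) and 0.39 (0.14). Between the drugs 0 of the 14 regulators passed, and 0 had an unadjusted p under 0.05. Among 77 genes of the mitochondrial ribosome 1 rose, *Mrps31*, with INT-787 compared with vehicle, while 10.2% of all tested genes rose. The list's median log2 fold change was -0.02.

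The citric acid cycle feeds the chain with NADH and succinate. With INT-787 compared with vehicle *Suclg1* and *Dld* rose and *Idh3a* fell, out of 14 genes, while 10.2% of all tested genes rose and 9.48% fell. The call for *Dld* (adjusted p = 0.0497) was lost with the length offset (0.062), with which *Idh3g*, named after its value was seen, passed (0.023). With OCA compared with vehicle *Idh2* fell by 0.52 and *Cs*, citrate synthase, fell by 0.29 on the log2 scale (adjusted p = 0.000195 and 0.026), while 2.45% of all genes fell. *Idh3a* stood at -0.36 with OCA (edgeR adjusted p = 0.051) and passed with the length offset (0.038). DESeq2, limma-voom, and the length offset each called 3 genes of the list there. With INT-787 compared with OCA 4 of 14 were higher, among them *Cs* (0.35) and *Idh2* (0.35), while 2.19% of all genes were higher, and the list's median was 0.24. Of 13 carriers and electron donors, 1 rose and 3 fell with INT-787 compared with vehicle, while 10.2% of all tested genes rose and 9.48% fell. *Vdac1* rose, while *Ucp2*, an uncoupling protein family member, fell by 0.80, *Gpd2* by 0.63, and the adenine nucleotide carrier *Slc25a4* by 0.62. *Gpd2* also fell with OCA compared with vehicle (-0.55, adjusted p = 0.0085), the only call of the list there, while 2.45% of all genes fell. Between the drugs, *Slc25a5*, another adenine nucleotide carrier, was higher with INT-787 (0.35, adjusted p = 0.033), and *Slc25a4* was lower (-0.47, adjusted p = 0.042). Of all genes 2.19% were higher and 3.19% lower there.

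Other sets of abundant transcripts were counted too. The 78 tested genes of the cytosolic ribosome, with a median exon length of 1806 bases, had a median log2 fold change of -0.14 for INT-787 compared with vehicle and -0.11 for INT-787 compared with OCA, and none passed by edgeR, DESeq2, or limma-voom, with 6 and 2 at an unadjusted p under 0.05. With the length offset the medians were -0.08 and -0.09. It called 1 gene lower for INT-787 compared with vehicle, while 10.6% of all genes were lower, and 0 between the drugs. Among 38 tested proteasome genes, *Psmd7* and *Psmd14* fell with INT-787 compared with vehicle, while 9.48% of all genes fell, and *Psmd8* and *Psmd7* fell with OCA, while 2.45% did. For INT-787 DESeq2 called 7, limma-voom 4, and the length offset 7, and for OCA they called 3, 2, and 4. These counts describe the lists, and no test of the difference between lists was made.

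Markers of liver cell types were also called in these comparisons. Of 9 stellate cell and fibroblast markers, 6 fell with INT-787 compared with vehicle and 5 were lower than with OCA, while 9.48% and 3.19% of all tested genes were lower. The deepest were *Col3a1* (-1.28), *Col1a1* (-1.25), and *Acta2* (-1.15) compared with vehicle and *Col1a1* (-1.59), *Col3a1* (-1.40), and *Col1a2* (-1.34) compared with OCA. Their summed level was 1322 to 2515 CPM in vehicle, 1216 to 3420 CPM with OCA, and 511 to 1120 CPM with INT-787. With OCA compared with vehicle 1 was called, *Lum* (log2 fold change 0.71, edgeR adjusted p = 0.047), but not by limma-voom or with the length offset (adjusted p = 0.078). Of 8 macrophage markers, 5 fell with INT-787 compared with vehicle and 4 were lower than with OCA, with no call for OCA compared with vehicle (edgeR, DESeq2, and limma-voom; 1 at an unadjusted p under 0.05). *Gpnmb* and *Trem2*, known from lipid-associated macrophages, were among the deepest in both comparisons, with *Cd68* compared with vehicle and *Itgax* compared with OCA. The list had sums of 409 to 596, 339 to 734, and 282 to 451 CPM. No marker of either list was at 0. Of 7 hepatocyte markers, 3 rose with INT-787 (*Serpinc1*, *Alb*, and *Ahsg*) and 3 with OCA (*Ahsg*, *Alb*, and *Fgb*) compared with vehicle, while 10.2% and 4.15% of all genes rose, and their sums were 66583 to 145722 CPM in vehicle, 115430 to 208089 CPM with OCA, and 102759 to 178507 CPM with INT-787. Between the drugs, 0 of 7 hepatocyte markers passed by edgeR and 1 by DESeq2 and by limma-voom, and 4 had an unadjusted p under 0.05. Of the other lists, 2 of 6 endothelial (*Cdh5* and *Pecam1*), 1 of 5 lymphocyte, and 1 of 5 bile duct markers (*Spp1*) fell with INT-787 compared with vehicle, while 9.48% of all tested genes fell. *Spp1* was also lower than with OCA. With OCA compared with vehicle these lists had no call, and 4, 2, and 1 of their genes had an unadjusted p under 0.05. Their median log2 fold changes were -0.30, -0.56, and 0.16 with OCA and -0.33, -0.44, and -0.36 with INT-787, each compared with vehicle. *Cidea*, the only gene of the adipocyte list that was tested, fell with INT-787 and with OCA compared with vehicle (log2 fold changes -2.10 and -2.14). *Adipoq*, *Ucp1*, and *Lep* of that list had 0 counts, so the fall of *Cidea* is not read as one of fat cells. None of 5 red blood cell markers passed in any comparison (edgeR). In whole liver, fewer cells of a type and less RNA per cell cannot be told apart, and the part of these cell types in the members' values was not tested.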

How the data were processed

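Liver messenger RNA of 28 mice was sequenced (75 cycles, poly(A) selected, stranded kit) and aligned by the authors with STAR 2.5.2a to GRCm38, Ensembl release 89; the counting program and its strand setting are not given in the sources used here. The authors deposited raw counts per gene. Groups came from the labels, and 0 columns belonged to other samples. Symbols, coordinates, and exon lengths came from GENCODE M21 (21858 of 21935 genes matched).

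Genes passing filterByExpr (12580) were scaled with TMM and tested with edgeR 4.0.16 (glmQLFit, glmQLFTest; R 4.3.3) in 1 model of the 3 groups, with p values adjusted over all of these genes by Benjamini and Hochberg's method and called at 0.05 or less. Unless named otherwise, adjusted p values are from this test. Mean log2 CPM used a prior count of 2. The length offset subtracted, per mouse, a loess trend (span 0.5) of log2 CPM deviations on log2 exon length. Alternatives were DESeq2 1.42.0 size factors, upper-quartile scaling, no filter, at least 10 counts in every mouse, DESeq2, limma-voom (limma 3.58.1), only 2 groups, a replicate block, the sample number, the length offset, the last also with the block or with the principal transcript's length, and leaving out mice. Steps were tested on simulated data. Python 3.11.15 with numpy 2.4.6, pandas 2.3.3, scipy 1.17.1, and matplotlib 3.10.9 made the summaries.

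The members and lists were chosen with earlier results of these data known. Named with values were, per complex and comparison, up to 3 called members in each direction with a mean of at least 5 CPM, or else the member with the lowest p; all of complex II; the isoform pairs of complex IV; and matches under 1 CPM. Of other lists, up to 3 called genes per direction with a mean of at least 5 CPM were named. 1 gene that this rule names is not reported here. Counting error is small for members above 100 CPM and larger in vehicle replicate 6, where 1 CPM is about 1 count. Whether mice of a group shared cages or extraction days is not given, so p values measure the spread between these mice.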

Additional observations from a re-analysis of the deposited data

Results flagged for a closer look

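A single mouse stood apart from the others of its group in 2 of 78 group values examined (mean level of each complex and log2 CPM of each named member), by the ratio of its gap to the group's range, and chance flags about 1 in 20. *Cox5b* was high in INT-787 replicate 8 (log2 CPM 8.076), a mouse whose transcript length slope was -0.11, the lowest of its group. *Sdhc* was low in OCA replicate 1 (log2 CPM 7.453), a mouse whose slope was 0.10, the highest of its group. Whether the slope accounts for either value was not tested.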

How the results depend on the processing

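The number of members called for INT-787 compared with vehicle was 2 in the reported fit and 5 with DESeq2, 6 with the replicate block, 5 with the sample number, 5 with the length offset, 12 with the length offset and replicate block, and 6 with the offset by principal transcript length; leaving out 1 mouse gave 2 to 5. Those 6 fits called 2417 to 2864 of all 12580 genes, compared with 2469. For OCA compared with vehicle it was 0, and 1 (*Ndufa8*) with the replicate block, the length offset, and both; leaving out 1 mouse gave 0 throughout. For INT-787 compared with OCA it was 2, and 1 with upper-quartile scaling, 5 with DESeq2, 6 with the length offset, 8 with the offset and the replicate block, and 7 with the offset by principal transcript length; leaving out 1 mouse gave 1 to 5. Those 5 fits called 708 to 915 of all genes, compared with 677. Every called member was higher in the first-named group. The cause of these differences was not tested. The offset by principal transcript length and the fits without vehicle replicates 1 and 10 were chosen after seeing the data. Without both of those mice the counts were 3, 0, and 2.

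Of 27 pairs of mice in different groups with the same replicate number, 11 had a correlation of their deviations over 0.1 (range -0.24 to 0.43), with a median of 0.08 compared with 0.0037 for other pairs. The labels tie no number to a shared cage or day and not every pair passed 0.1, so the replicate numbers were not taken as pairs, although 9 of 28 mice correlated best with a mouse of their own number. Sets by sample number differ from these pairs. Vehicle replicate 5, for example, shares a set with OCA replicate 4 and INT-787 replicate 4. Pairs within those sets, and whether the length slope follows them, were not tested, so these values do not speak to pairing by sample number. With the replicate block, the median of complex V for OCA compared with vehicle was 0.0064 in place of -0.08. Upper-quartile scaling moved the median of all genes by -0.06 for INT-787 compared with vehicle and the split of all calls from 1277 higher and 1192 lower to 960 and 1597, and for OCA from 522 and 308 to 408 and 372. Totals of nuclear genes alone gave no separate fit, as 0 mitochondrially encoded genes were among those analysed. With at least 10 counts in every mouse 77 members were tested. *Ndufv1* passed in every fit of INT-787 compared with vehicle (adjusted p 0.0011 to 0.021) and with OCA (0.0034 to 0.045).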
